A study of Homo sapiens with 6 samples.

Results

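Histone acetylation is set by enzymes that add acetyl groups to histones and enzymes that take them off, most of which work inside larger complexes. The genes described here are 41 of the 14821 genes in the count table, chosen by name. They comprise class I and class IIb histone deacetylases, subunits of the SIN3, NuRD, CoREST and NCoR corepressor complexes, 2 histone-binding chaperones, sirtuins and histone acetyltransferases. All 41 had a row in the table, and all 41 passed the filter on low counts, as did 14203 genes in all.

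The libraries were made from F36P, a human acute erythroid leukaemia cell line. Cells transduced with the retroviral vector MSCV-PIG-AM-ERG, which carries the ETS transcription factor ERG, gave 3 libraries labelled as biological replicates. Cells with the MSCV-PIG vector alone gave 3 more. Every culture, control cultures included, carried a retroviral vector and had been kept in 1 µg/ml puromycin for 4 days, and no source used here says whether the replicates came from separate transductions. According to the design text the study asked how ERG blocks red cell differentiation, and its title names the class IIa deacetylase HDAC7. The labels give no clone, no ERG dose and no untransduced F36P cells, so the comparison is between selected pools of 1 line.

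Corepressor complexes are mostly brought to genes by transcription factors, and they remove histone acetyl groups there through a deacetylase subunit: HDAC1 or HDAC2 in SIN3, NuRD and CoREST, HDAC3 in NCoR. In red cell precursors such complexes work with factors such as GATA1 and GFI1B, and the acetyltransferases EP300 and CREBBP act as coactivators of GATA1.

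As a check of the labels, ERG itself was at 97.4, 103 and 104 CPM with the ERG vector and at 28.1, 14.6 and 22.4 CPM with the vector alone. CPM gives the reads of a gene relative to all reads of its library, with the library sizes scaled by edgeR's TMM factors. The difference was 2.23 on the log2 scale (SE 0.23, edgeR adjusted p = 0.0110). The edgeR call was lost on omitting vector replicate 3 (adjusted p = 0.0544) or ERG replicate 1 or 2 (0.0716 or 0.0729), and with both of these summed (0.0738). Over all alternatives the log2 difference of ERG ranged from 2.01 to 2.46. HDAC7 had means of 428 ± 47.7 and 501 ± 53.3 CPM (SD, n = 3 each), which differed by -0.23 on the log2 scale (edgeR adjusted p = 0.520). The reads per library ranged from 10257141 to 14803031. ERG replicates 1 and 2 were much closer to each other than any other pair of libraries, with a chi-square per degree of freedom of 2.20 against 21.6 to 86.9. An earlier account of these data divided the libraries into a set A (ERG replicates 1 and 2 and vector replicate 1) and a set B (ERG replicate 3 and vector replicates 2 and 3), and that division is used below. It is drawn from the expression of these same libraries and is not a label of the study, so p-values of a model that holds it are not used as support.

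None of the 41 genes passed the test between ERG and vector libraries. Of all 14203 genes tested with edgeR, 313 passed at an adjusted p of 0.05, a share of 2.20%, and the count among the 41 was 0. At that share about 1 gene in a list of this length would pass, so a count of 0 sets the list apart from nothing. An unadjusted edgeR p under 0.05 was found for 5 genes, or 12.2% of the 41 beside 15.9% of all genes. They were the sirtuin SIRT2, the NCoR subunits TBL1X and TBL1XR1, and the NuRD subunits MBD2 and GATAD2B. The count was 2 without vector replicate 2, without ERG replicate 1 or 2, and with ERG replicates 1 and 2 summed. It was 3 without vector replicate 1 or 3, and 13 without ERG replicate 3, where edgeR calls over all genes also rose, to 441. The share over all genes is not given for these fits, so their counts are no result about the list. With DESeq2, which passed 7.09% of all genes, 1 of the 41 passed, namely SIRT2. With a term for the library sets in the edgeR model, 13.2% of all genes and, of the 41, SIRT2 and TBL1X had an adjusted p under the threshold, which is no independent support, since the sets come from the same values. The log2 differences were positive in 18 genes and negative in 23, with a median of -0.04 beside -0.01 over all genes.

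How far the data limit a difference was read from the 95% intervals of the edgeR fit without a set term. That fit counts ERG replicates 1 and 2 as separate libraries, although they were much closer to each other than any other pair. With both summed, edgeR calls over all genes went from 313 to 0. Intervals with both summed are not given here, so the bounds hold only for the fit used. In 39 of the 41 genes the interval lay within a 2-fold difference either way (95.1%, beside 62.1% of all genes), SIRT2 and TBL1X being the exceptions. Within 1.5-fold lay 25 of the 41 (61.0%, beside 26.2%). These genes were more deeply counted than most: the median gene of the list had 7361 reads over the 6 libraries, beside 2108 reads for the median gene tested. Their median SE was 0.17 on the log2 scale, beside 0.23 over all genes. The estimated differences were also small, with a median size of 0.16 beside 0.25, and 31 of the 41 lay under 0.25 (75.6%, beside 49.7%).

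**Figure D1:**
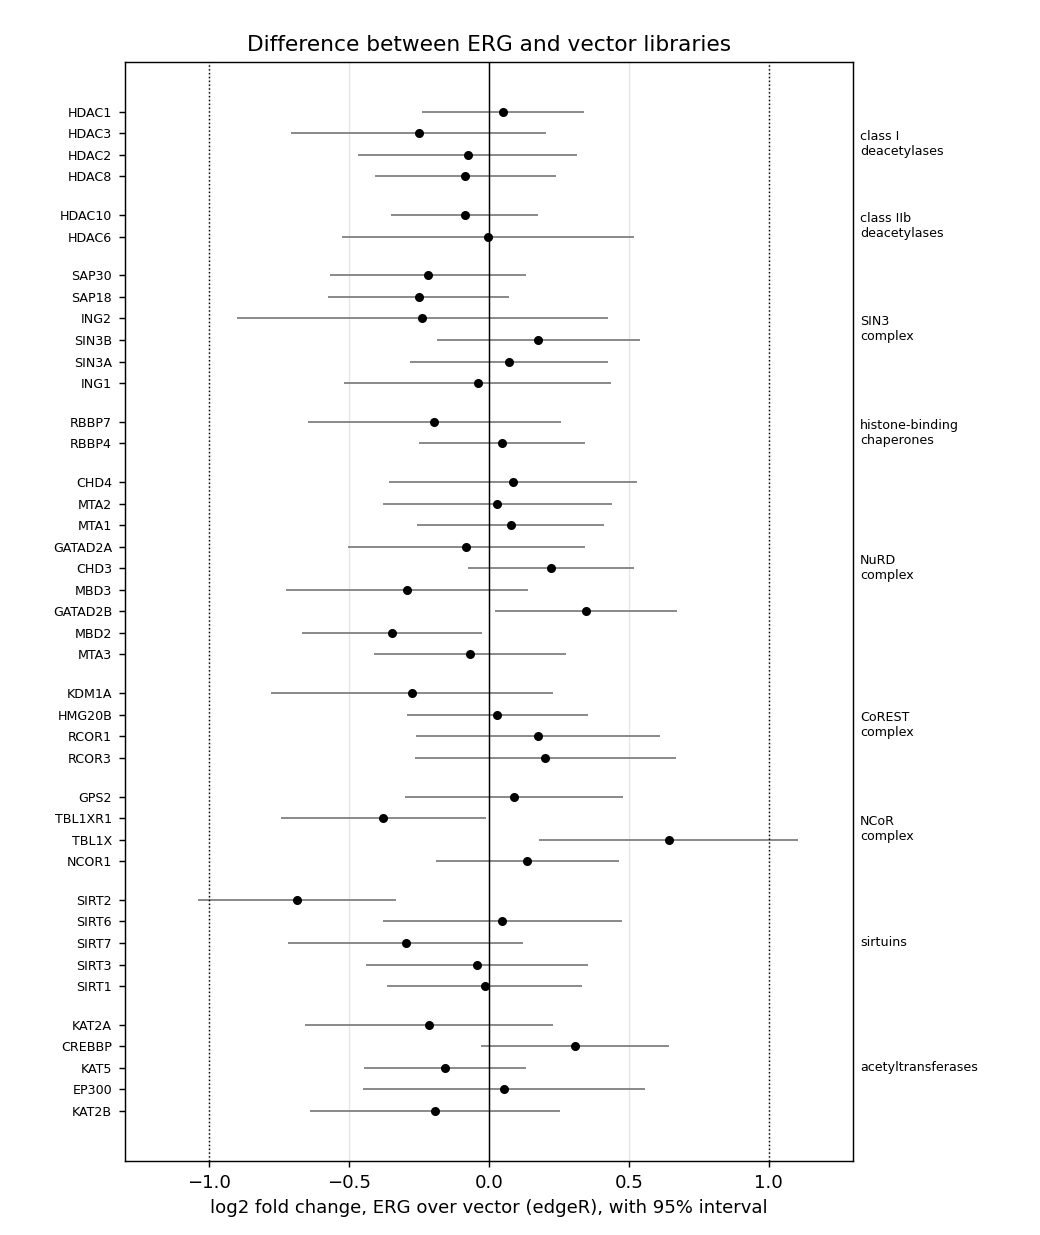
Log2 fold change of each of the 41 genes, ERG over vector libraries (x axis), with its 95% interval from edgeR; genes are rows grouped by complex, and dotted lines mark a 2-fold difference. Only the intervals of SIRT2 and TBL1X cross a dotted line, and 5 intervals leave out 0.

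Levels differed far more between the genes than between the conditions. Per kb of exon, the highest mean over the 6 libraries was that of CHD4, the main ATPase of NuRD, at 105 CPM per kb. It was followed by the NuRD scaffold subunits MTA2 (85.8 CPM per kb) and MTA1 (83.3), the lysine demethylase KDM1A of CoREST (78.5) and HDAC1 (66.2). CHD4 stood at percentile 95.8 of the 12792 genes with an exon length. At the bottom were the NuRD subunit MTA3 (4.04 CPM per kb), the class I deacetylase HDAC8 (2.45) and ING1 (1.63), a reader of methylated histone tails in SIN3, which stood at percentile 16.3. This order depends on the annotated exon lengths. HDAC8 (11.324 kb) had 25.7 to 30.5 CPM and stood at percentile 22.2. SIRT3 (2.816 kb), with a similar 24.2 to 33.0 CPM, stood at percentile 54.1. Which transcripts of these genes were expressed was not tested. Exons of CHD4, HDAC10 and GPS2 are overlapped by other annotated genes over 87.2%, 86.8% and 86.7% of their length, and those of KAT5 over 45.9%. No source used here says how reads shared by such genes were assigned, so the values of these 4 genes are uncertain.

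**Figure D2:**
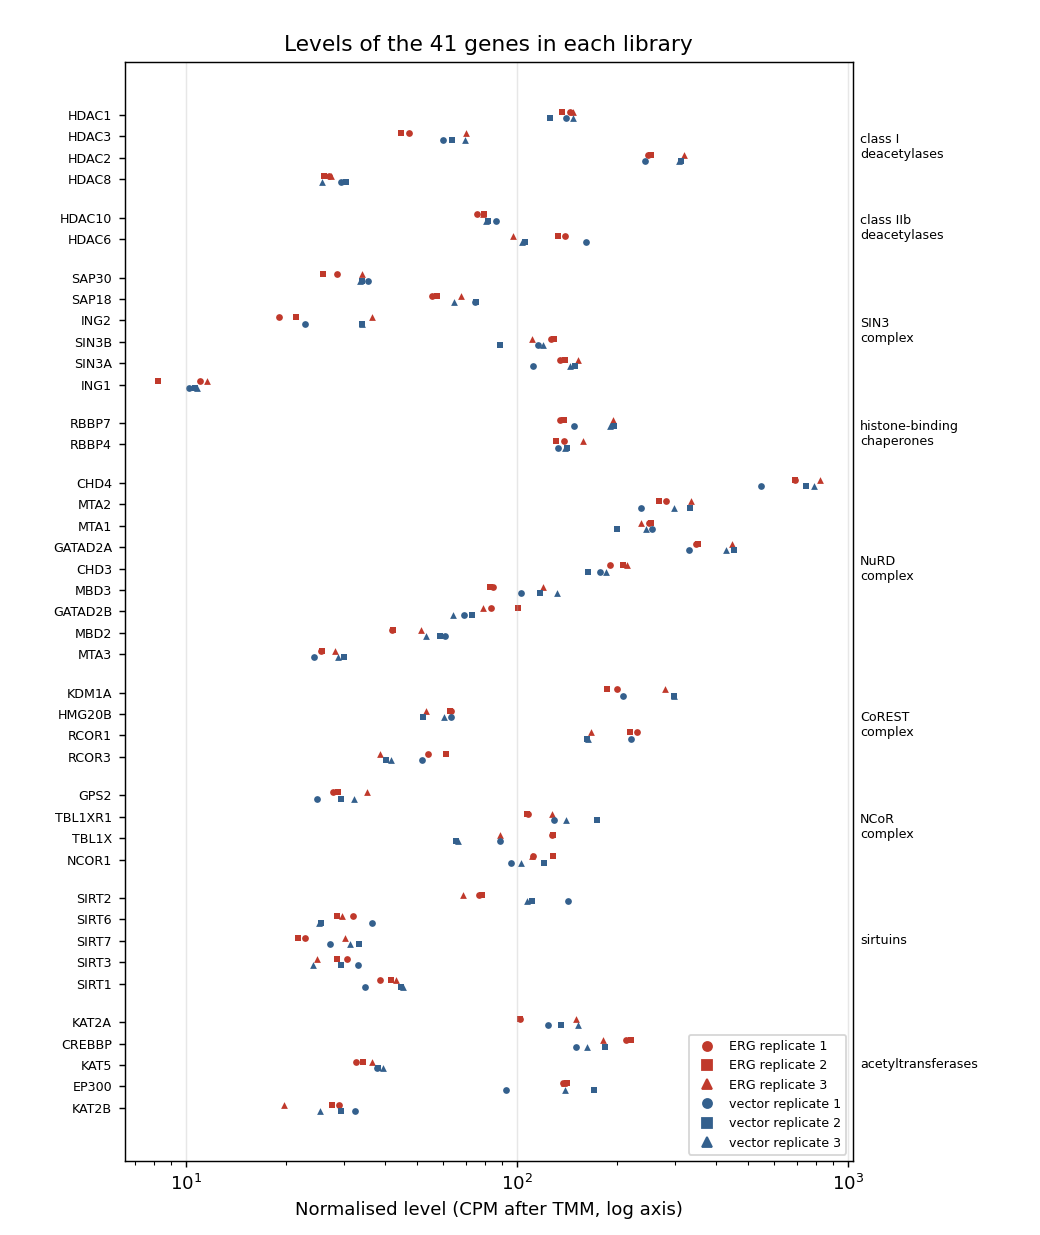
Normalised level of each of the 41 genes in each library (x axis, CPM after TMM scaling, log axis), with genes as rows grouped by complex, ERG libraries in red and vector libraries in blue. The genes span from 8.23 CPM (ING1, ERG replicate 2) to 822 CPM (CHD4, ERG replicate 3), while red and blue points of most genes intermingle.

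The class I deacetylases HDAC1, HDAC2 and HDAC3 are the catalytic subunits of the corepressor complexes. HDAC1 was at 144, 137 and 148 CPM with ERG and at 141, 126 and 147 CPM with the vector. The groups overlapped throughout, and the log2 difference was 0.05 (SE 0.12, 95% interval -0.24 to 0.34). Its close paralogue HDAC2 was at 249.5, 254.5 and 319 CPM with ERG and at 244, 313 and 309.6 CPM with the vector. The 3 libraries of set B were all above the 3 of set A for HDAC2, whichever vector they carried, and the log2 difference was -0.08 (interval -0.47 to 0.32). HDAC3, the enzyme of the NCoR complex, was at 47.1, 44.6 and 70.3 CPM with ERG and at 59.6, 63.7 and 69.6 CPM with the vector. Its ERG replicates 1 and 2 were the lowest and its ERG replicate 3 the highest of all, and the log2 difference of -0.25 did not pass (edgeR adjusted p = 0.575). HDAC8, an X-linked enzyme that acts outside these complexes, ranged only from 25.7 to 30.5 CPM.

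Of the class IIb enzymes, HDAC6 deacetylates tubulin in the cytoplasm and HDAC10 is a polyamine deacetylase. HDAC6 was at 139.8, 133 and 97.6 CPM with ERG and at 162, 106 and 104 CPM with the vector. The group means were nearly the same, at 124 ± 22.7 and 124 ± 32.9 CPM (SD, n = 3 each), and the set A libraries were all above those of set B. HDAC10 was among the steadiest of the 41 genes, between 75.5 and 86.3 CPM in the 6 libraries. All of its ERG libraries lay just below all vector libraries, with a log2 difference of -0.09 (interval -0.35 to 0.18).

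Genes whose groups did not overlap, like HDAC10, numbered 7 of the 41, or 17.1%, beside 21.9% of all genes. The ERG libraries were the higher ones in 2 of them, the NuRD subunits CHD3 and GATAD2B, beside 12.3% of all genes. They were the lower ones in 5, namely HDAC10, MBD2, TBL1XR1, SIRT2 and KAT5, beside 9.54% of all genes. The count over both directions is below the share over the table.

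SIN3A and SIN3B are the alternative scaffolds of the SIN3 complex. SIN3A was at 135, 139.5 and 153 CPM with ERG and at 111.5, 149.9 and 145 CPM with the vector, and SIN3B was at 127, 129 and 111 CPM with ERG and at 116, 88.8 and 120.1 CPM with the vector. Neither separated the groups, with log2 differences of 0.07 and 0.18. SAP18 and SAP30, small subunits that stabilise the complex, had ERG means of 60.0 ± 6.71 and 29.5 ± 4.12 CPM and vector means of 71.4 ± 6.06 and 34.3 ± 1.04 CPM (SD, n = 3 each). On the log2 scale SAP18 differed by -0.25 (edgeR adjusted p = 0.435) and SAP30 by -0.22 (edgeR adjusted p = 0.520). The 6 SIN3 genes together summed to 390.1 ± 20.4 CPM with ERG and 390.1 ± 18.6 CPM with the vector (SD, n = 3 each).

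ING2, which ties SIN3 to methylated histone H3, showed the largest difference between the library sets of the 41 genes. It was at 19.1, 21.5 and 22.9 CPM in set A (the last being vector replicate 1) and at 36.5, 34.0 and 34.0 CPM in set B (the first being ERG replicate 3). ERG and vector libraries lay side by side within each set, with log2 differences of -0.18 in set A and 0.10 in set B. Its 95% interval over both sets, -0.90 to 0.42, was the widest of the list.

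The chaperones RBBP4 and RBBP7 carry histones into SIN3 and NuRD alike. RBBP7 was at 135, 139 and 195.5 CPM with ERG and at 149, 197 and 191 CPM with the vector. It thus split by library set and not by vector, with a log2 difference of -0.19 between the groups (interval -0.64 to 0.26). RBBP4 ranged from 131 to 158 CPM. The table also held the pseudogenes RBBP4P1 and RBBP4P2 with 16.6% and 4.0% as many reads as RBBP4, which leaves its count uncertain.

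NuRD joins a deacetylase to a nucleosome-remodelling ATPase, which is CHD4 or CHD3. CHD4 was at 693, 694 and 822 CPM with ERG and at 544, 748 and 789 CPM with the vector, with no separation of the groups. CHD3 was at 191, 209.6 and 216 CPM with ERG and at 178, 164 and 186 CPM with the vector. All ERG libraries were higher for CHD3, by a log2 difference of 0.22 (SE 0.13) that did not pass (edgeR adjusted p = 0.443). The scaffold genes MTA1, MTA2 and MTA3 differed by 0.08, 0.03 and -0.07 on the log2 scale, and none separated the groups.

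NuRD contains either MBD2, which binds methylated DNA, or MBD3, which largely does not. MBD2 was at 42.1, 42.1 and 51.4 CPM with ERG and at 60.7, 58.5 and 53.0 CPM with the vector. All ERG libraries were below all vector libraries, although ERG replicate 3 came close to vector replicate 3. The log2 difference was -0.35 (SE 0.14, interval -0.67 to -0.02), with an edgeR adjusted p of 0.281. MBD3 was at 84.8, 82.9 and 120.1 CPM with ERG and at 103, 117 and 132 CPM with the vector. Its groups overlapped, and its log2 difference of -0.29 did not pass either (edgeR adjusted p = 0.492).

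GATAD2A and GATAD2B, the p66 subunits, link the MBD subunit to CHD4 and exclude each other. GATAD2B was at 83.4, 100.6 and 79.0 CPM with ERG and at 69.4, 73.1 and 64.3 CPM with the vector, so that all ERG libraries were higher. The log2 difference was 0.35 (SE 0.14, interval 0.02 to 0.67), and its edgeR adjusted p was 0.284. GATAD2A, at 330.4 to 451 CPM, showed no such separation and a log2 difference of -0.08. The 9 NuRD genes summed to 2121 ± 186 CPM with ERG and 2068 ± 230.5 CPM with the vector (SD, n = 3 each), a difference smaller than the spread of either group.

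CoREST pairs HDAC1 or HDAC2 with KDM1A, which removes methyl groups from lysine 4 of histone H3 and is a partner of GFI1 and GFI1B. KDM1A was at 200.4, 187 and 280.1 CPM with ERG and at 209.4, 298 and 299 CPM with the vector. Libraries of set A lay at 209.4 CPM or less and those of set B at 280.1 CPM or more, and ERG was slightly lower within each set, by -0.11 and -0.09 on the log2 scale. The difference over both sets was -0.27 (interval -0.78 to 0.23, edgeR adjusted p = 0.577). RCOR1, the scaffold that stabilises KDM1A, had the opposite order: 230.2, 220.1 and 220.4 CPM in set A, and 168, 163 and 164 CPM in set B, where ERG replicate 3 is the first. RCOR3, a scaffold that supports demethylation less well, was likewise higher in set A (51.8 to 61.2 CPM) than in set B (38.6 to 41.8 CPM). HMG20B, a DNA-bending subunit, ranged from 52.2 to 63.3 CPM. With KDM1A and its scaffolds moving in opposite directions between sets, the sum of the 4 CoREST genes stayed between 531 and 565 CPM in the 6 libraries.

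In the NCoR complex, NCOR1 is the scaffold, and TBL1X and TBL1XR1 are paralogous WD40-repeat subunits that fill the same place. TBL1X (chromosome X, 9463295 to 9741037, GENCODE 29 on hg38) was at 128, 128 and 88.9 CPM with ERG and at 89.2, 65.4 and 66.2 CPM with the vector. ERG replicate 3 was just under vector replicate 1, and otherwise every ERG library was higher. The fitted difference was 1.56-fold, or 0.64 on the log2 scale (SE 0.20, interval 0.18 to 1.11), with an edgeR adjusted p of 0.168. The 2 sets gave similar log2 differences, 0.52 in A and 0.43 in B. Over the alternatives without the set term or the block TBL1X was never called, and its adjusted p reached 0.557 without 1 replicate, by edgeR.

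TBL1XR1 (chromosome 3, 177019340 to 177228000) was at 108, 107 and 127 CPM with ERG and at 129, 174 and 141 CPM with the vector. All ERG libraries were below all vector libraries, the narrowest gap being between ERG replicate 3 and vector replicate 1. The log2 difference was -0.38 (SE 0.16, interval -0.74 to -0.01), which did not pass (edgeR adjusted p = 0.302). NCOR1 was at 112, 129 and 111 CPM with ERG and at 95.8, 120.5 and 103 CPM with the vector, and GPS2, which bridges the complex, ranged from 24.9 to 35.2 CPM. Both overlapped between groups.

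Since TBL1X and TBL1XR1 can replace each other, their balance was also taken within each library. The log2 ratio of TBL1X to TBL1XR1 counts was 0.24, 0.26 and -0.52 with ERG and -0.54, -1.41 and -1.09 with the vector. The groups did not overlap, but only just. Per kb of exon, TBL1X made up 49.8% ± 7.63 of the pair with ERG and 33.3% ± 6.86 with the vector (SD, n = 3 each). The difference of the mean log2 ratios was 1.01, with a two-sided exact permutation p of 0.1, the smallest that 3 against 3 libraries allow, and 0.8 after adjustment over the 12 pairs examined.

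Those 12 pairs consist of paralogues or alternative subunits, and TBL1X with TBL1XR1 was the only one of them without overlap. Full separation of 3 from 3 libraries has an exact permutation p of 0.1, so 1 such pair among 12 stands out from nothing. Of all single genes tested, 21.9% had groups without overlap. HDAC1 made up 71.5% ± 2.30 of the HDAC1 and HDAC2 level per kb with ERG and 69.5% ± 3.80 with the vector (SD, n = 3 each). By counts HDAC2 was the higher gene in every library, with log2 ratios of HDAC1 to HDAC2 from -1.31 to -0.79. The share per kb thus rests on the annotated exon lengths, 2.124 kb for HDAC1 and 10.147 kb for HDAC2. GATAD2A made up 84.1% ± 3.16 of its pair with GATAD2B with ERG and 87.6% ± 1.96 with the vector, and the difference of their log2 ratios was -0.42 (exact permutation p = 0.2). MBD2 with MBD3 differed by -0.04, RCOR1 with RCOR3 by -0.01 and CHD3 with CHD4 by 0.12 on the same scale, with exact permutation p-values of 0.9, 1 and 0.5.

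**Figure D3:**
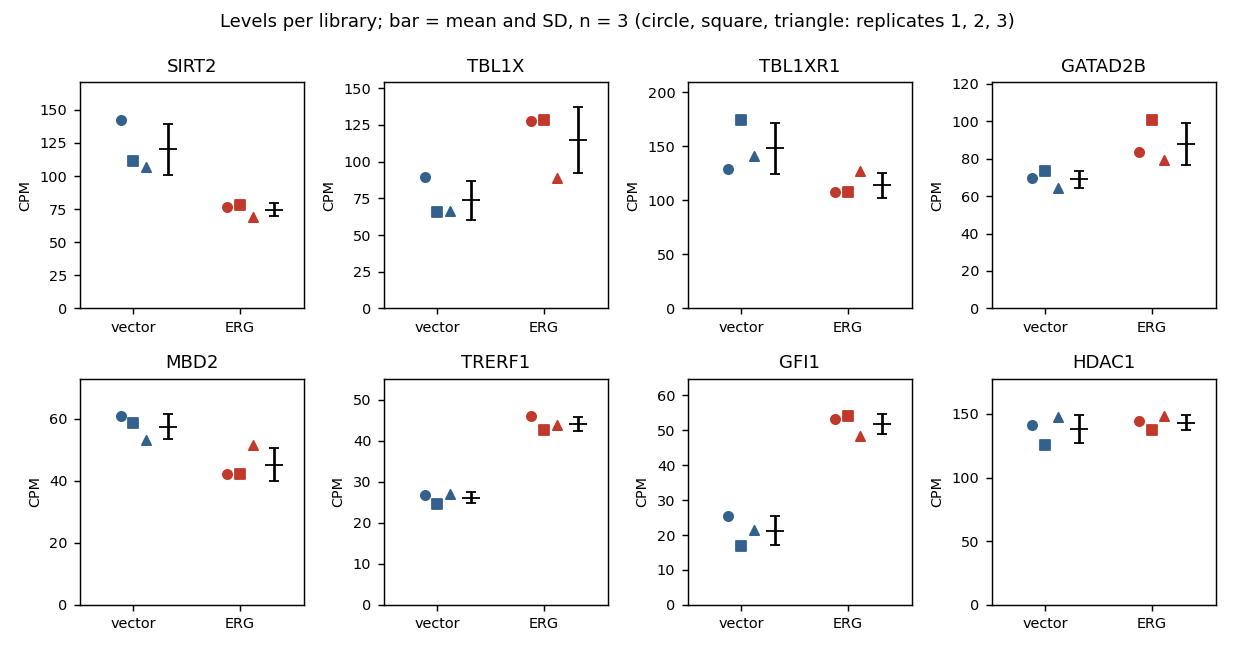
Level in each library (y axis, CPM from 0) of the 5 listed genes with the smallest unadjusted p, of the related genes TRERF1 and GFI1 and of HDAC1, for vector (blue) and ERG (red) libraries; bars give mean and SD of 3 libraries. SIRT2, TBL1XR1 and MBD2 are lower and GATAD2B, TRERF1 and GFI1 higher in all ERG libraries, TBL1X overlaps barely, and HDAC1 overlaps fully.

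Sirtuins are deacetylases that need NAD and do not depend on the corepressor scaffolds. SIRT2 is mostly cytoplasmic, where it acts on tubulin and metabolic enzymes, and it deacetylates histone H4 lysine 16 during mitosis. SIRT2 (chromosome 19, 38878555 to 38899862) was at 76.8, 78.5 and 68.9 CPM with ERG and at 142, 111 and 107 CPM with the vector. Every ERG library was below every vector library with a wide gap between the groups, and the means were 74.7 ± 5.11 and 120.1 ± 19.3 CPM (SD, n = 3 each). The fitted level was 1.61-fold lower with ERG, or -0.68 on the log2 scale (SE 0.15, interval -1.04 to -0.33).

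Of the 41 genes SIRT2 had the lowest edgeR adjusted p, 0.0712, above the threshold. DESeq2 gave an adjusted p of 0.00349, and with edgeR the adjusted p reached 0.290 without 1 replicate. The log2 difference was -0.87 in set A and -0.66 in set B, where the sign was fixed by the groups not overlapping. The call depends on which model is used, while the size varied from -0.77 to -0.55 over 15 other ways of fitting.

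Among the other sirtuins, SIRT7, a nucleolar enzyme, was at 22.9, 21.7 and 30.3 CPM with ERG and at 27.2, 33.4 and 31.4 CPM with the vector (log2 difference -0.30, edgeR adjusted p = 0.469). SIRT1, the best-known nuclear sirtuin, SIRT3, of mitochondria, and SIRT6, of chromatin, differed by -0.02, -0.04 and 0.05 on the log2 scale. The 5 sirtuins summed to 201, 199 and 197 CPM with ERG and to 274, 244 and 233 CPM with the vector. SIRT2 makes up the greater part of that gap.

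EP300 and CREBBP are the paired coactivator acetyltransferases. EP300 was at 138, 142 and 139 CPM with ERG and at 92.7, 171 and 139.7 CPM with the vector, so the vector libraries enclosed the ERG libraries. CREBBP was at 213, 222 and 182 CPM with ERG and at 151, 185 and 163 CPM with the vector. Only ERG replicate 3 and vector replicate 2 overlapped for CREBBP, and the log2 difference of 0.31 (SE 0.14, interval -0.03 to 0.64) did not pass (edgeR adjusted p = 0.357). Set A alone gave a difference of 0.53, and set B alone 0.07.

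KAT2A, the acetyltransferase of the SAGA coactivator complex, was at 102, 102 and 151 CPM with ERG and at 124, 136 and 153 CPM with the vector. It overlapped between groups and was higher in set B throughout. Its paralogue KAT2B was at 28.9, 27.7 and 19.8 CPM with ERG and at 32.3, 29.5 and 25.4 CPM with the vector. KAT5, the catalytic subunit of the NuA4 complex, lay between 32.7 and 39.3 CPM, with all ERG libraries below all vector libraries and a log2 difference of -0.16 (interval -0.44 to 0.13).

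The division into library sets was plain in many of these genes. In 22 of the 41 genes the sets did not overlap (53.7%, beside 43.0% of all genes), with set B higher in 16 (39.0%, beside 22.6%) and lower in 6 (14.6%, beside 20.4%). In an additive model with both terms, the difference between sets was larger than that between ERG and vector in 28 of the 41 genes (68.3%, beside 61.4% of all genes). The median size of the set difference was 0.28 on the log2 scale, and that of the ERG difference in the same model 0.13. Over all genes these medians were 0.34 and 0.22. After ING2 (0.71), the largest set differences were those of HDAC6 (-0.55), KDM1A (0.52), TBL1X (-0.48), RCOR3 (-0.46), RBBP7 (0.45) and RCOR1 (-0.43), counted as set B over set A. Since the sets were themselves recognised from expression, these values describe the libraries and no test is attached to them.

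**Figure D4:**
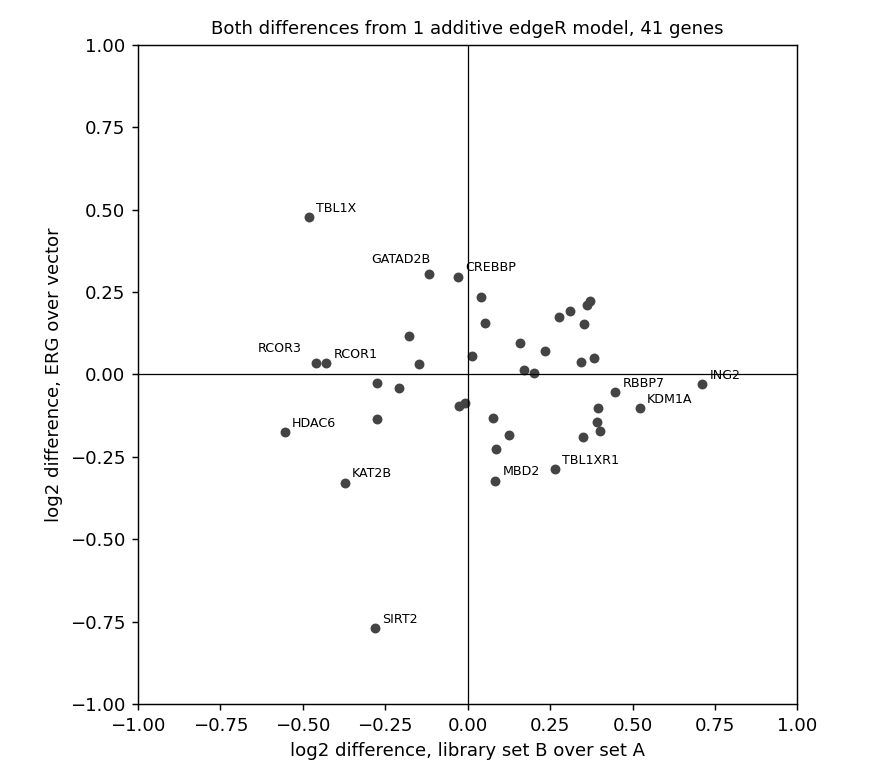
Each of the 41 genes by its log2 difference between library set B and set A (x axis) and between ERG and vector libraries (y axis), both from 1 additive edgeR model. In 28 of the 41 genes the point lies farther from the vertical than from the horizontal line, with SIRT2 (-0.77 on the y axis) standing alone below.

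Other gene groups moved with the libraries too. The 12 erythroid markers, globin genes among them, summed to 3674 to 6691 CPM with ERG and 11069 to 18884 CPM with the vector, and edgeR called 4 of the 12 lower and 0 higher, while DESeq2 called 8 lower. Of 7 megakaryocyte markers tested (9 listed) 5 were called higher, with sums of 1319 to 2454 and 537 to 1166 CPM. Most of each of these sums was ITGA2B, which was not called (edgeR adjusted p = 0.209). Of 7 mast cell and basophil markers 4 were called higher, with sums of 1811 to 1882 and 586 to 913 CPM. Granulocyte and monocyte markers (2 of 6 tested), lymphoid markers (2 of 6) and stromal and epithelial markers (3 of 6) had 0 calls with edgeR. Their sums were 245 to 374 CPM with ERG and 158 to 328 CPM with the vector, 29.9 to 48.8 and 16.1 to 34.2 CPM, and 4.35 to 5.42 and 6.63 to 11.2 CPM. The myeloid genes ITGAM and LYZ, singled out after their values were seen, lay in opposite directions without overlap, ITGAM at 245 ± 56.9 CPM with ERG and 78.4 ± 43.3 CPM with the vector, and LYZ at 78.2 ± 11.5 and 137 ± 56.7 CPM (SD, n = 3 each). DESeq2 called ITGAM higher (adjusted p = 0.0011), while edgeR did not (adjusted p = 0.0865). LYZ was called by neither edgeR (adjusted p = 0.227) nor DESeq2 (adjusted p = 0.0982). With ERG replicates 1 and 2 summed, or without either, edgeR called 0 genes in all, these markers included. In bulk RNA a change in the share of cells of a type and a change in RNA per cell cannot be told apart. The 18 proliferation genes had 0 calls but summed to 2634 to 3021 CPM in set A and 3838 to 4347 CPM in set B. Within that list the log2 difference of set B over set A ran from -0.06 (TOP2A) to 1.25 (MCM4). Of the 41 genes, 16 were higher in set B without overlap, ING2, KDM1A and RBBP7 among them, and 6 were lower. The part of these shifts in the values of the 41 genes was not tested.

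The rest of the machinery was covered by 8 further lists of 90 genes, of which 87 were tested. The median log2 difference over the 87 was 0.10, with 51 positive and 36 negative. With edgeR 2 of the 87 were called higher and 0 lower, or about the share over all genes. The first, TRERF1 (chromosome 6, 42224931 to 42452051), is a subunit of the mitotic deacetylase complex MiDAC, a further HDAC1 and HDAC2 complex. TRERF1 was at 45.9, 42.5 and 43.7 CPM with ERG and at 26.8, 24.6 and 26.9 CPM with the vector, a clear gap. It rose 1.69-fold, or 0.75 on the log2 scale (SE 0.13, edgeR adjusted p = 0.0318). The call was lost without ERG replicate 1 or 2 or vector replicate 2 or 3, and with ERG replicates 1 and 2 summed to 1 library, where edgeR adjusted p reached 0.203 and the log2 difference stayed at 0.71 or more.

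The second, GFI1 (chromosome 1, 92474762 to 92486876), encodes a zinc finger repressor that brings CoREST and KDM1A to its targets. GFI1 was at 53.1, 54.0 and 48.5 CPM with ERG and at 25.4, 17.0 and 21.3 CPM with the vector, again without overlap. It rose 2.44-fold, or 1.29 on the log2 scale (SE 0.18, edgeR adjusted p = 0.0197). Its call was lost without each of the same 4 libraries and with the summed library, where edgeR adjusted p reached 0.119 and the log2 difference stayed at 1.15 or more.

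By list, the calls were 1 of 6 MIER and MiDAC subunits (TRERF1) and 1 of 10 blood factors that recruit corepressors (GFI1). The remaining lists had 0 calls: 5 other deacetylases and sirtuins, 9 other acetyltransferases, 24 subunits of SAGA, NuA4 and MYST complexes, 10 other SIN3 subunits, 11 other NuRD, CoREST and NCoR subunits, and 12 acetyl-lysine readers. Their median log2 differences were -0.23, 0.22, 0.02, 0.22, 0.14 and 0.07. Singled out after its values were seen, the class IIa deacetylase HDAC5 had the largest difference of the 87. It was at 57.9, 57.7 and 25.7 CPM with ERG and at 30.5, 7.62 and 9.49 CPM with the vector. ERG replicate 3 lay below vector replicate 1, and the log2 difference was 1.57 (SE 0.56). HDAC5 was not called (edgeR adjusted p = 0.232, DESeq2 adjusted p = 0.0510), but edgeR called it without vector replicate 1. Its set A libraries were all above those of set B, whichever vector they carried. In the additive model its difference of set B over set A was -1.47 on the log2 scale, and its ERG difference 1.23. BRPF1, a scaffold of MYST acetyltransferases singled out likewise, was at 108 ± 3.69 CPM with ERG and 75.9 ± 1.92 CPM with the vector (SD, n = 3 each), without overlap. Its log2 difference was 0.51 (edgeR adjusted p = 0.0712), and DESeq2 called it higher (adjusted p = 0.00185).

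ERG belongs to the ETS family, whose members bind DNA at a GGAA core, and the promoters were searched for 1 extended ETS motif, CCGGAAGT, on both strands. RefSeq promoter windows (GRCh38.p14, 250 bases before to 50 after the start) were matched for 39 of the 41 genes. Of these, 5 held the motif (12.8%), beside 10.1% of the 10465 genes of the count table that were matched. The stretches are shown because they are the places in these promoters where the letters of the motif occur. Each is 30 bases, 5′ to 3′ on the strand of the gene, with the motif in capitals, and ACTTCCGG is the motif on the other strand.
GATAD2A, chr19:19385766-19385795 (+): cgcgcctcaacCCGGAAGTgtgcgaggcga
KAT5, chr11:65712205-65712234 (+): ggcgctcggtcCCGGAAGTgacgtctccca
KAT5, chr11:65712230-65712259 (+): tcccagaggggCCGGAAGTggcagtggagg
MTA2, chr11:62601895-62601924 (-): ccgaacttcttCCGGAAGTagccgatctgc
RBBP7, chrX:16869834-16869863 (-): gggctccgagcACTTCCGGagccgggcgcg
SIRT3, chr11:236953-236982 (-): aatgctcactcACTTCCGGcgccgagcggc

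KAT5 held the motif at 2 places, ending 29 and 4 bases before the start, and in RBBP7 it lay from base 11 to base 18 after the start. None of the 5 genes passed the test, and their log2 differences were -0.08 (GATAD2A), -0.16 (KAT5), 0.03 (MTA2), -0.19 (RBBP7) and -0.04 (SIRT3). The letters do not occur in the windows of SIRT2 and TBL1X. No binding was measured in this series, and a match is a description of the sequence.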

How the data were processed

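Polyadenylated RNA of F36P cells was sequenced from 3 ERG and 3 vector libraries. The deposited table holds whole-number read counts per gene (column totals 10257141 to 14803031). The submitters' processing notes name hg38 as the build and list edgeR 3.32.1; aligner, counting and strand setting are not given in the sources used here. The deposited counts had been filtered already (second-highest CPM at least 1.01 in every gene). The control columns do not repeat the titles' wording and were taken as the vector samples, the only other group, and 0 columns were left unused.

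Genes reaching 1 CPM in 3 or more of the 6 libraries were tested with edgeR 4.0.16 (R 4.3.3, TMM, quasi-likelihood test, two-sided). P-values were adjusted by Benjamini-Hochberg over all 14203 genes, with a threshold of 0.05. A check on simulated data came first. Its libraries were independent, without sets or a close pair, so it bears on the code and not on these libraries. These p-values set the difference between groups against the spread between these libraries, with ERG replicates 1 and 2 counted as separate. Alternatives used DESeq2 1.42.0, limma 3.58.1 (voom), other scalings, filters and blocks, and left out each replicate. Exon lengths came from GENCODE 29 and promoter sequences from RefSeq (GRCh38.p14). Pairs were compared by the log2 ratio of counts (prior count 0.5) with an exact permutation test over libraries. The genes named one by one include those past the threshold in edgeR, DESeq2 or the set-term fit. They also include the 12 largest differences and the 2 highest per kb in each of the 9 groups. Further genes of the 41, such as SIN3A, EP300, NCOR1 and KAT2B, are described although they meet none of these rules. Other listed genes are named if past edgeR, if singled out in the text or, for HDAC7, in the check of labels. The 41 genes, the 8 further lists, the 7 marker lists and the library sets were chosen with earlier results of these data known.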

Additional observations from a re-analysis of the deposited data

How the results depend on the processing

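Of the 15 alternatives run for each of the 41 genes, none of those with other size factors, other low-count filters or limma voom gave a call among them. DESeq2 called 1 gene lower (SIRT2), and the replicate block and the library-set term each called 1 higher (TBL1X) and 1 lower (SIRT2), with edgeR adjusted p = 0.0455 and 0.0271 under the block. Leaving out a replicate called 0. SIRT2 had adjusted p between 6.1e-04 and 0.290 and TBL1X between 0.00587 and 0.557 over all alternatives, both lowest with the set term, whose p-values are no valid test because the sets were read from the same expression values. Deviations of same-numbered libraries from their group means correlated at 0.63, -0.28 and 0.59, and not every library correlated best with its own number. The values for replicates 1 and 3 were the highest of all pairings. These correlations also follow the library sets, so they cannot settle whether replicate numbers pair the libraries. Over all genes, calls higher and lower went from 209 and 104 to 596 and 410 (DESeq2), 582 and 323 (replicate block), 1022 and 847 (set term) and 0 and 0 (ERG replicates 1 and 2 summed), and ranged over 0 to 309 and 0 to 139 without 1 replicate. The lowest counts came without ERG replicate 1 or 2, with 0 calls, where an absent call says nothing of the 41 genes. Of the other listed genes, 4 (DESeq2), 5 (block), 8 (set term), 0 (summed) and 0 to 3 (without 1 replicate) were called higher, and 1 lower under the block and under the set term. Paralogue pairs without overlap numbered 1 to 5 without 1 replicate.

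Signs held in 576 of 615 fits of the 41 genes, and 17 genes with a log2 difference of at most 0.09 in size changed sign in at least 1. With the set term the sign changed in HDAC2 (0.0391), ING1 (0.0123), MTA3 (0.00296), GATAD2A (0.0503), HMG20B (-0.0406), SIRT1 (0.0714) and SIRT6 (-0.0250). HDAC6 changed sign with voom (0.0106), upper-quartile factors (0.0353), the 5 CPM filter (0.0220) and the block (0.0101), and SIRT1 with upper-quartile factors (0.0236), the 5 CPM filter (0.0128) and the summed libraries (0.00408). HMG20B also did so with the summed libraries (-0.00950). Without 1 replicate, sign changes came in CHD4 (-0.0614 to 0.191), EP300 (-0.154 to 0.265), GATAD2A (-0.205 to 0.00890), GPS2 (-0.0205 to 0.176), HDAC1 (-0.0109 to 0.103), HDAC6 (-0.114 to 0.236), HMG20B (-0.0459 to 0.112), ING1 (-0.129 to 0.0993), MTA1 (-0.0231 to 0.148), MTA2 (-0.0950 to 0.145), RBBP4 (-0.0297 to 0.107), SIN3A (-0.0498 to 0.152), SIRT1 (-0.129 to 0.0540), SIRT3 (-0.152 to 0.0639) and SIRT6 (-0.0422 to 0.244). The cause was not tested.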
